A study of Macaca mulatta with 5 samples.

Results

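Histone H3 dimethylated at lysine 4 (H3K4me2) was compared between the prefrontal cortex of an adult rhesus macaque aged 9 years and that of 2 old animals aged 22 and 26 years. The comparison uses 3 of the 5 libraries of the series, each from 1 animal. A further H3K4me2 library, from an infant of 0.4 years, and an input library of chromatin pooled from 7 animals and sequenced without immunoprecipitation, serve as reference values. All were rhesus macaques. The labels name no treatment, sex or strain. The unit of comparison is the island, a stretch of enriched sequence that the authors called once on the 4 H3K4me2 libraries together. Of 58414 autosomal islands, 50598 held at least 50 reads over the 9, 22 and 26 yr libraries and were compared, and the other 7816 were not. Among those compared, 1332 met a rule described below that places both old libraries on the same side of 9 yr.

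H3K4me2 is written by methyltransferase complexes of the SET1 and MLL family and removed by demethylases such as KDM1A. It lies around the start sites of genes and over enhancers, the distal elements that raise transcription of genes, and it is found at active elements as well as at elements held ready for use. The prefrontal cortex, a region that serves planning and working memory, is a mixture of neurons, astrocytes, oligodendrocytes and microglia, which mark different sets of enhancers. In such bulk tissue, fewer cells of a type and less of the mark per cell cannot be told apart. Islands are given by position in the build of the deposited reads, for which no gene annotation was used. The cell type makeup was not checked against marker genes, and no sequence is shown.

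The 3 libraries were similar in depth, with 9405440, 10155000 and 10810296 autosomal reads at 9, 22 and 26 yr. Of these, 2881458, 3428574 and 3589888 lay in islands. The lag between reads of opposite strands inside islands of chromosome 1, a gauge of fragment length, was 130 bp at 9 and 22 yr and 145 bp at 26 yr. Since each age has 1 animal, no spread within an age can be given, an age cannot be told apart from its animal and its library, and every interval below is an exact 95% interval that covers counting error only.

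Both old libraries held more of their reads in islands than the 9 yr library did. For every 100 reads in 10 kb bins free of islands, the islands held 56.3 reads at 9 yr, and 64.9 and 63.1 in the 22 and 26 yr libraries. The 0.4 yr library held 40.6 and the input 15.0. Relative to 9 yr, the summed island level was 1.15-fold at 22 yr (log2 ratio 0.207, interval 0.204 to 0.209) and 1.12-fold at 26 yr (0.165, interval 0.163 to 0.167). The old libraries thus lay nearer to each other than to 9 yr in this sum. On each of the 20 autosomes, both old libraries were above 9 yr with this scaling. The log2 ratio of 22 over 9 yr ran from 0.170 on chromosome 1 to 0.281 on chromosome 8, and that of 26 over 9 yr from 0.105 on chromosome 16 to 0.281 on chromosome 5. The island-free bins of the same chromosomes stayed between -0.041 and 0.039 in these ratios. The authors called the islands on the reads of the infant, 9, 22 and 26 yr libraries together. The deposited reads numbered 8595726, 9605954, 10368182 and 11041568 in that order. A stretch enriched in both old animals thus brought more reads to the call than one equally enriched at 9 yr alone. How far the joint call shaped the summed island level was not tested.

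**Figure D1:**
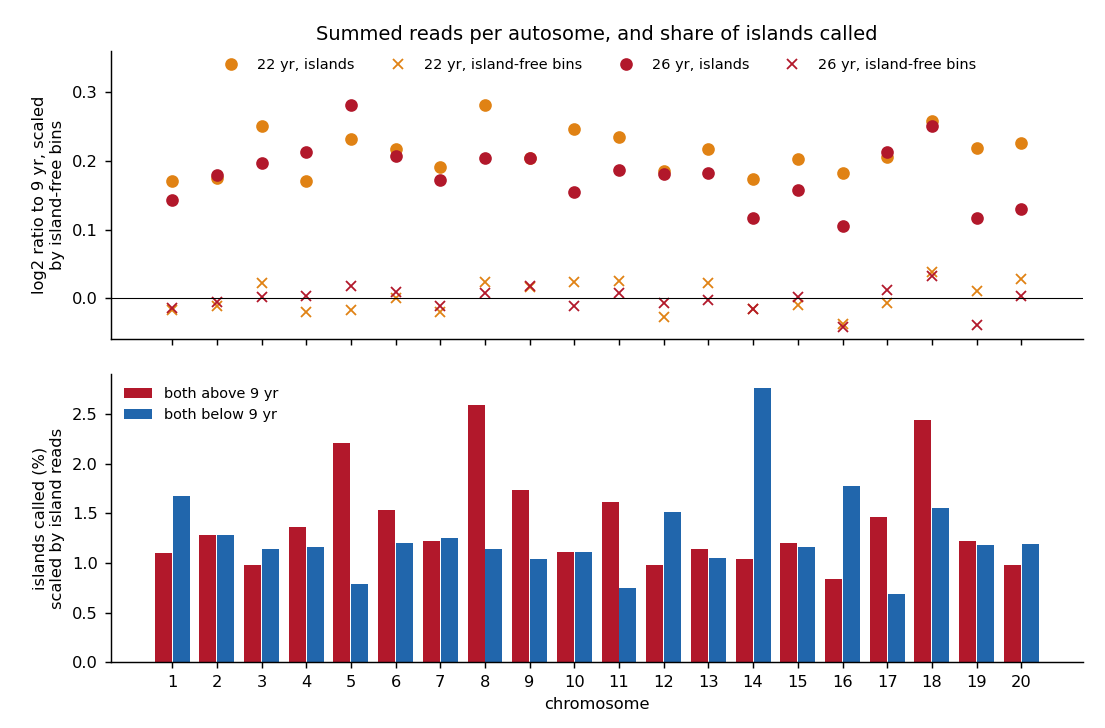
The upper panel plots, for each autosome, the log2 ratio of the 22 yr (orange) and 26 yr (red) library to 9 yr for summed island reads (circles) and for reads in 10 kb bins without islands (crosses), both scaled by island-free bins. All circles lie between 0.105 and 0.281 and all crosses between -0.041 and 0.039. The lower panel gives the percent of islands called per chromosome with scaling by island reads, where chromosome 14 has the highest share below 9 yr (2.76%) and chromosome 8 the highest share above (2.58%).

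This difference in overall level makes the choice of scale decisive for single islands. When each library is divided by its total autosomal island reads, the median island had a log2 ratio of -0.02 at 22 yr and -0.01 at 26 yr, so that an island is measured against the other islands. When each library is divided by its reads in island-free bins, the medians were 0.19 and 0.15. Results below use the scale of island reads unless the scale of island-free bins is named.

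The old pair differed from each other about as much as either differed from 9 yr. Across the 50598 islands the standard deviation of the log2 ratio was 0.44 for 22 over 9 yr, 0.40 for 26 over 9 yr and 0.42 for 26 over 22 yr. In the 8452 islands with at least 300 reads it was 0.29, 0.24 and 0.27, and in the 491 with at least 1000 reads it was 0.28, 0.16 and 0.24. Both old libraries lay above 9 yr in 16144 islands (31.9%) and below it in 17850 (35.3%). Both ratios rest on the same 9 yr count, so an unusual 9 yr count alone places both old libraries on the same side, and these shares are a description.

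An island was called when both old libraries lay on the same side of 9 yr, both exact counting intervals excluded equality, and the smaller of the 2 log2 differences exceeded the difference between 22 and 26 yr. This gave 655 islands with both old libraries above 9 yr, 1.29% of those compared, and 677 with both below, 1.34%. The condition on the old pair removed 10 and 59 islands that met the others. The called islands had median log2 ratios of 0.73 at 22 yr and 0.67 at 26 yr in the higher set, and of -0.77 and -0.71 in the lower set. With the scale of island-free bins 2624 islands (5.19%) were called above 9 yr and 138 (0.273%) below. The 655 were all among the 2624, and the 138 were all among the 677, of which they are 20.4%. Of the 677 lower islands, 671 still had both old libraries below 9 yr on that scale. Which of the 2 directions holds more islands thus depends on the scale. Simulated islands with spread between libraries but no difference between ages gave no fewer calls, so a call describes these 3 libraries only.

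**Figure D2:**
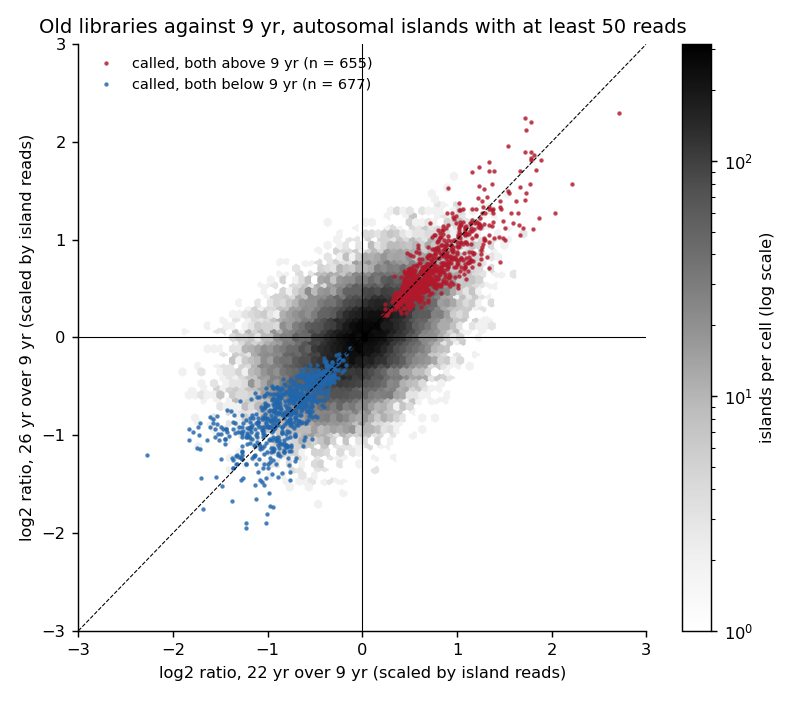
Each island with at least 50 reads is placed by its log2 ratio of 22 over 9 yr (x axis) and of 26 over 9 yr (y axis), scaled by island reads, with grey shading for islands per cell on a log scale. The 655 islands called above 9 yr (red) and 677 called below (blue) lie along the dashed line of equal ratios, which the rule requires, while most islands surround 0. 3 islands, 2 of them called, lie outside the axes.

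Without subtraction of input, differences of 2-fold or more were few and sat in islands with few reads. Both old libraries were at least 2-fold above 9 yr in 165 islands (0.326%) and at least 2-fold below in 83 (0.164%), and 111 and 82 of these were also called. With at least 100 reads over the 3 libraries, 31 and 5 islands of 29784 passed the 2-fold line, and with at least 300 reads, 0 and 2 of 8452. On the scale of island-free bins 378 (0.747%) and 27 (0.0534%) passed it, and with scaled input reads taken off each island, 1199 and 709 did. The line itself separates near-equal islands. Just inside it, chr6:175162401-175163000 had a smaller log2 difference of 1.01 with 11, 27 and 34 reads at 9, 22 and 26 yr. Just outside it, chr10:2767001-2768400 had 0.994 with 13, 39 and 33 reads. Below 9 yr, chr2:93730801-93732600 was just inside at -1.001 with 26, 14 and 16 reads, and chr19:57773201-57775600 just outside at -0.991 with 37, 21 and 23.

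The island with the largest difference was chr1:126366401-126367800, of 1400 bp. The 9 yr library had 0 reads in it, while the 22 and 26 yr libraries had 57 and 81, the infant 31 and the input 5. Against a limit of 3 reads at 9 yr, the island was at least 16.0-fold higher in the 22 yr library and at least 21.7-fold in the 26 yr library. The 9 yr library had no read anywhere from chr1:126357962-126368667, a stretch of 10706 bp in which the infant library held 39 reads, the old libraries 63 and 97, and the input 12. Within 20 kb on each side, reads outside islands numbered 50 at 9 yr against 103 and 147 in the old libraries. The 9 yr library thus lacked reads beyond the island itself, whereas the 0.4 yr library did not.

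Only 1 other compared island had no 9 yr read, chr7:82844401-82845200. It held 14 reads at 22 yr and 36 at 26 yr, at least 3.92-fold and at least 9.63-fold higher by the same limit of 3 reads. Here the stretch without 9 yr reads was only 981 bp, little longer than the island, and reads around it were alike, at 77, 99 and 91. The old pair differed from each other at this island, with a log2 ratio of 26 over 22 yr of 1.27 (interval 0.37 to 2.30). The 0.4 yr library held 6 reads and the input 10.

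At chr7:12791001-12795000 the 9 yr library had 16 reads and the old libraries 128 and 100, log2 ratios of 2.71 (interval 1.99 to 3.60) and 2.29 (1.56 to 3.19). The old pair differed here too, with a log2 ratio of 26 over 22 yr of -0.42 (interval -0.81 to -0.03). Reads around it were also fewer at 9 yr, at 39 against 116 and 119, and the 0.4 yr library held 34 reads with 58 around. A like pattern was seen at chr7:79914801-79917200, with 26, 91 and 93 reads at 9, 22 and 26 yr (log2 ratios 1.54 and 1.50) and 69, 150 and 157 reads around it. At both islands, then, reads inside and outside the island were lower in the 9 yr library together.

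The remaining islands with the largest differences were narrow and held few reads. The island chr7:36401801-36402800 had 6, 28 and 28 reads at 9, 22 and 26 yr, a log2 ratio of 1.88 (interval 0.67 to 3.53) at 22 yr and 1.82 (0.61 to 3.47) at 26 yr. The island chr16:22526401-22527600 had 8, 35 and 38 reads (1.81 and 1.86). Their surroundings were nearly level, at 81, 76 and 93 reads and at 146, 165 and 195. Similar counts were found at chr2:184673201-184674200, with 5, 22 and 31 reads. At chr3:90098401-90099400 they were 5, 22 and 24. At chr6:6735601-6737000 they were 5, 22 and 25. The 0.4 yr library held 7, 9, 12, 9 and 14 reads in these 5 islands, in the order given, which per island read is above the 9 yr level in each.

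Well covered islands differed by smaller ratios, but a larger share of them was called. With at least 300 reads 2.69% were called higher and 2.08% lower, and with at least 1000 reads 1.83% and 6.72%. Of the 8452 with at least 300 reads, both old libraries were over 1.5-fold above 9 yr in 17, and the 227 called higher had median log2 ratios of 0.50 and 0.47. The 5 with the largest smaller difference are given here. The island chr10:57678601-57682200 had 57, 132 and 131 reads at 9, 22 and 26 yr, log2 ratios of 0.95 (interval 0.50 to 1.44) and 0.88 (0.42 to 1.36), with 39 reads at 0.4 yr. The island chr4:29682001-29686200 had 61, 128 and 134 reads (0.81 and 0.81), with 143, 138 and 129 around it, so its surroundings did not follow. The island chr8:122643401-122646600, enriched 9.95-fold over input in the authors' deposited table, had 74, 145 and 150 reads (0.71 and 0.70). The islands chr11:68432401-68436400, with 82, 158 and 172 reads, and chr7:22165401-22168400, with 60, 115 and 126, completed these 5. In all 5, the log2 ratio of 26 over 22 yr lay between -0.08 and 0.06.

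Of the islands lower in the old libraries, 2 of the 5 with the largest smaller difference among those with at least 300 reads lay side by side on chromosome 6. The island chr6:108847001-108849800 had 250, 106 and 108 reads at 9, 22 and 26 yr, log2 ratios of -1.48 (interval -1.83 to -1.16) and -1.52 (-1.87 to -1.20). Its neighbour chr6:108822001-108832600 had 682, 326 and 434 reads (-1.31 and -0.97). At this neighbour the old pair differed too, with a log2 ratio of 26 over 22 yr of 0.35 (interval 0.14 to 0.56). Reads outside islands were unusually dense there and were also most numerous at 9 yr, at 1066, 659 and 832 around the one and 2775, 2043 and 2347 around the other. The input held 965 and 2671 reads in the same flanks and 123 and 368 in the islands, and the authors' fold over input was 1.49 and 1.46. Reads were thus dense in this stretch without immunoprecipitation too. The input library was deeper, with 10270982 island-free reads against 5120832 at 9 yr, so its counts are not on the scale of the others. How much of the 9 yr level here is present without immunoprecipitation was not tested.

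On chromosome 14, chr14:14619001-14629800 had 194, 109 and 112 reads at 9, 22 and 26 yr, log2 ratios of -1.08 (interval -1.43 to -0.74) and -1.11 (-1.46 to -0.77), with level surroundings of 166, 154 and 177 reads. The island chr14:12316401-12324000 had 181, 131 and 132 reads (-0.72 and -0.77). The widest of these 5, chr16:76566801-76581000 with 14200 bp and 4.02-fold over input in the authors' deposited table, had 542, 387 and 423 reads (-0.74 and -0.67). The 0.4 yr library held 74, 66 and 165 reads in these islands, so per island read the infant was far nearer to the old animals than to the 9 yr animal at each. Narrow islands of this direction included chr7:158716601-158718200, with 36, 13 and 13 reads and 8 at 0.4 yr, chr2:188668001-188668800, with 31, 11 and 14, and chr5:46793601-46795000, with 35, 14 and 16. The list closed with chr3:917201-918400 (29, 13 and 11 reads), chr19:3828201-3830600 (31, 14 and 15), chr3:13491201-13493400 (31, 14 and 15) and chr19:1550001-1552200 (28, 13 and 14).

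**Figure D3:**
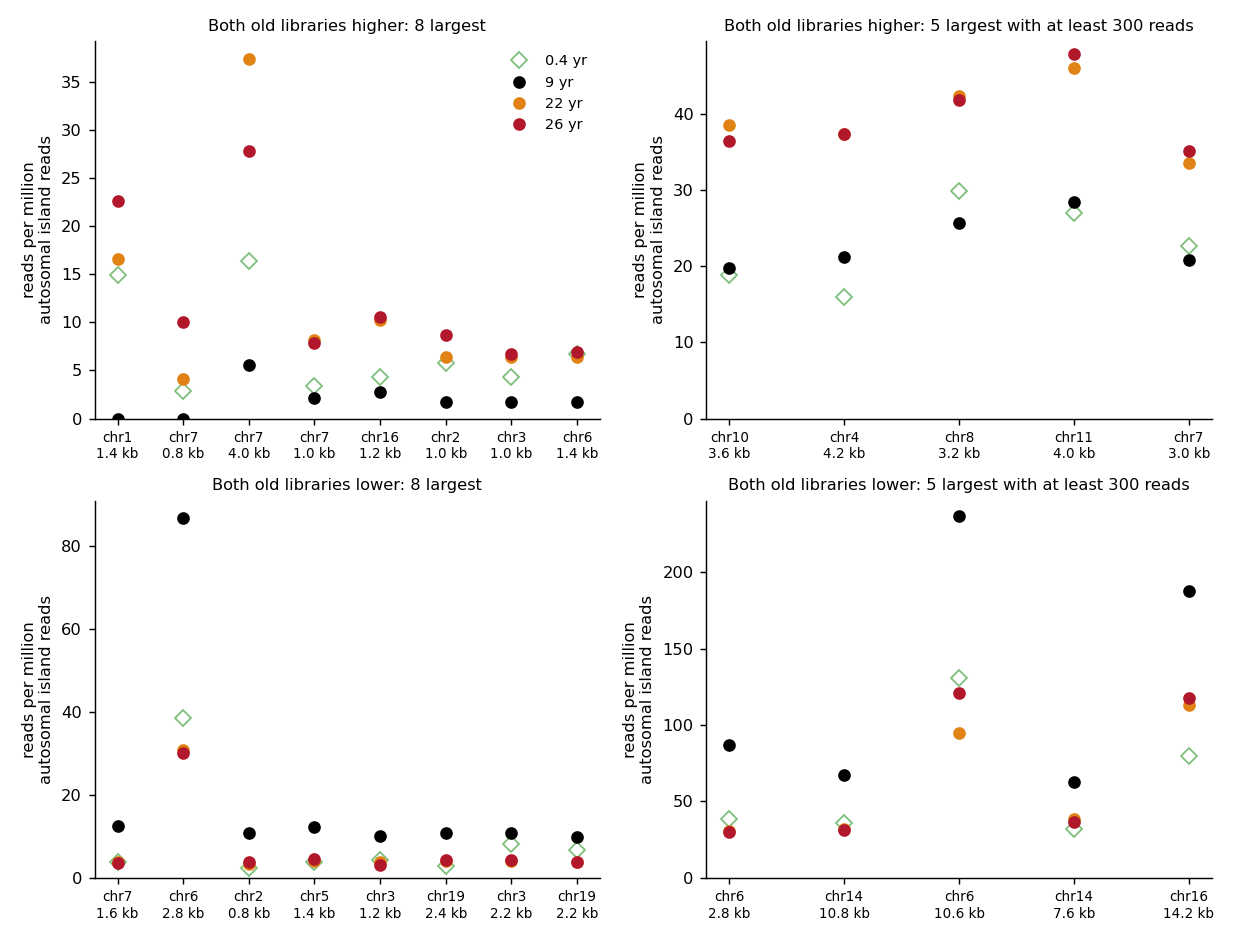
Reads per 1000000 autosomal island reads are plotted for the islands with the largest smaller difference, by chromosome and width, in the 0.4 yr (open diamond), 9 yr (black), 22 yr (orange) and 26 yr (red) library, 1 point per library. The upper row shows islands chosen with 9 yr below both old libraries and the lower row those with the reverse order. The 0.4 yr points of the right-hand lower panel lie nearer to the old libraries (74 reads at 0.4 yr against 194, 109 and 112 for the chromosome 14 island of 10800 bp).

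A test that sets the 9 yr library against the pair of old libraries was run over 58349 islands with edgeR's quasi-likelihood test. It has 1 residual degree of freedom, from the old pair, and assumes that 9 yr animals vary as the old ones do. The fit drew the variances of all islands to a common trend, so the old pair's own difference at an island carried no weight in its p-value. It called 4 islands higher in the old libraries and 4 lower (0.00686% each) at an adjusted p of 0.05, with 1192 and 1392 at an unadjusted p under 0.05. DESeq2 called 0 and 0, with 35 and 11 at the unadjusted level, and limma-voom called 4 and 4. With the scale of island-free bins edgeR called 10 (0.0171%) and 2 (0.00343%).

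The 4 higher islands were 3 described above and 1 that rests on a single animal. The edgeR adjusted p was 2.05e-12 for chr1:126366401-126367800, 1.85e-07 for chr7:12791001-12795000 and 0.00121 for chr7:82844401-82845200. The other, chr1:4539801-4546000 (adjusted p = 2.89e-06), had 53, 68 and 363 reads at 9, 22 and 26 yr. Its log2 ratio was 0.11 at 22 yr (interval -0.43 to 0.65) and 2.45 at 26 yr, so it failed the island rule and is a difference of the 26 yr library from both others. Next in order, chr7:79914801-79917200 did not pass (edgeR adjusted p = 0.0564), but passed with the scale of island-free bins (edgeR adjusted p = 0.00427).

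The 4 lower islands were likewise 3 described above and 1 that failed the island rule. There the old pair differed more from each other than 26 yr did from 9 yr. The edgeR adjusted p was 2.08e-07 for chr6:108847001-108849800, 1.22e-05 for chr6:108822001-108832600 and 0.0124 for chr14:14619001-14629800. The other, chr16:53378601-53380800 (adjusted p = 0.0102), had 321, 120 and 272 reads at 9, 22 and 26 yr, with a log2 ratio of 26 over 22 yr of 1.11 (interval 0.80 to 1.44). With the scale of island-free bins the edgeR adjusted p was 0.185 for the chromosome 14 island and 0.225 for the chromosome 16 island, so both calls ended, and it was 4.59e-05 and 0.0193 for the pair on chromosome 6. The island chr9:25128801-25132600, with 83, 41 and 38 reads, did not pass (edgeR adjusted p = 0.0609).

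The called islands of the 2 directions differed in kind. On the scale of island reads, higher islands were by their medians more enriched and had fewer islands around them. Lower islands were by theirs wider, weaker and more crowded. Reads over the 3 libraries had a median of 231 in the higher set, 160 in the lower set and 120 over all compared. The part of read depth in these contrasts was not tested. The median authors' fold over input was 4.14 for the higher set and 2.09 for the lower set, against 2.32 over all islands compared. That fold was computed from the same reads, so the islands were also divided into 4 classes of equal size by the 0.4 yr library over the input. Neither enters the comparison, but both entered the authors' call of the islands. From the lowest to the highest class, 0.387%, 0.648%, 1.32% and 2.82% of islands were called higher and 2.22%, 1.59%, 1.19% and 0.348% lower. The median log2 ratio went through the classes from -0.09 to 0.06 at 22 yr and from -0.14 to 0.13 at 26 yr. The highest class also held more reads, a median of 233 against 98 in the lowest. On the scale of island-free bins the medians were above 0 in every class, from 0.12 to 0.26 at 22 yr and from 0.03 to 0.29 at 26 yr.

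The input gave a level of reads without the mark. Scaled to island-free bins, it amounted to 41.9% of the 9 yr island reads in the lowest class and 14.6% in the highest. After those reads were taken off the sums, the log2 ratio at 22 yr was 0.21, 0.24, 0.29 and 0.31 from the lowest to the highest class, and at 26 yr it was 0.05, 0.12, 0.22 and 0.32. Before subtraction the sums gave 0.13, 0.16, 0.22 and 0.27 at 22 yr and 0.03, 0.08, 0.17 and 0.28 at 26 yr. The order of the classes was thus the same with and without subtraction, and the old libraries differed more from each other in weak islands than in strong ones. The same input counts set the classes and were taken off, so the subtraction is no independent check of that order.

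**Figure D4:**
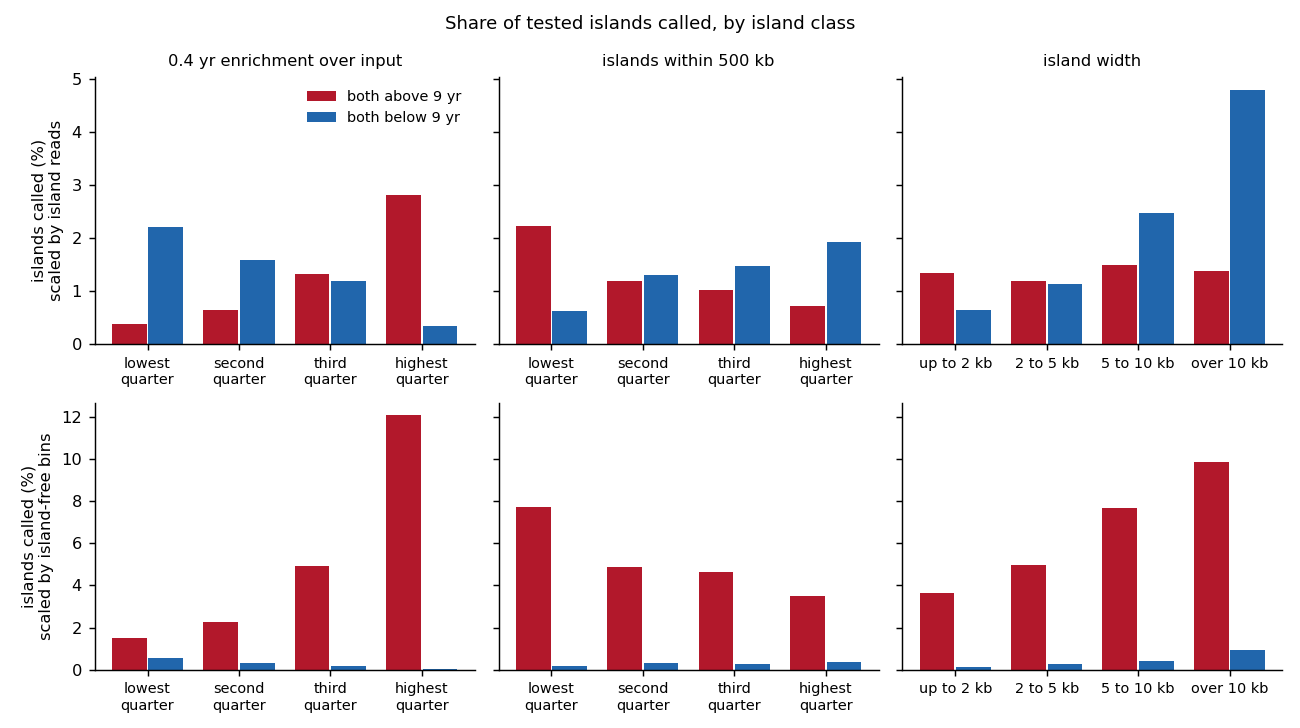
Bars give the percent of compared islands called with both old libraries above (red) or below (blue) 9 yr, by class of 0.4 yr enrichment over input, by class of the number of islands within 500 kb (4 classes of equal size each), and by island width, with scaling by island reads in the upper row and by island-free bins in the lower row, whose vertical axes differ. In the upper row higher calls go from 0.387% to 2.82% and lower calls from 2.22% to 0.348% across the enrichment classes. In the lower row higher calls outnumber lower calls in every class.

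Width separated the directions on the scale of island reads. Among islands over 10 kb, 87 of 1812 (4.80%) were called lower and 25 (1.38%) higher. Among islands of up to 2 kb, 91 of 13967 (0.652%) were called lower and 189 (1.35%) higher. Wide islands hold more reads (a median of 733 over the 3 libraries against 66), so their intervals are narrower. The median log2 ratio at 26 yr was 0.05 in islands of up to 2 kb and -0.08 in those over 10 kb, while at 22 yr it was 0.00 and -0.01, so the order by width was a feature of the 26 yr library. On the scale of island-free bins the calls of both directions were more frequent in wider islands. From islands of up to 2 kb to those over 10 kb, higher calls went from 3.63% to 9.88% and lower calls from 0.136% to 0.938%. The median width was then 3800 bp for higher calls and 3600 bp for lower calls, so the contrast in width depends on the scale.

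Crowding gave the reverse order for the 2 directions. The number of islands within 500 kb had a median of 32 around the higher islands, 62 around the lower ones and 48 over all compared. From the least to the most crowded of 4 classes, higher calls went from 2.24% to 1.19%, 1.03% and 0.719%, and lower calls from 0.625% to 1.30%, 1.49% and 1.94%. The median log2 ratio at 26 yr went from 0.11 to -0.12, and at 22 yr from 0.00 to -0.01. Here too the shift of the median was seen in the 26 yr library, although the called islands differ from 9 yr in both. By chromosome, the shares called lower were highest on chromosome 14 (2.76%), chromosome 16 (1.77%) and chromosome 1 (1.68%). Higher calls made up 2.58% on chromosome 8, 2.44% on chromosome 18 and 2.20% on chromosome 5.

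A lower island often had another one near it. Of the 677 lower islands, 261 (38.6%) had another lower island within 100 kb, while 14.1% of all compared islands had a lower island that near. Of the 655 higher islands, 59 (9.01%) had another higher one, against 9.07% of all compared. These shares were not matched for crowding, which was above that of all compared islands in the lower set and below it in the higher set. Chained at that distance, the lower islands formed 26 groups of 3 or more with 97 islands in all, and the higher islands 3 groups with 9. Islands in a group share their surroundings and are not independent.

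The largest group of lower islands, chr14:8700201-9018000, held 11 called islands among 30 compared, of which 23 had both old libraries below 9 yr. The median authors' fold of its called islands was 4.37, above the 2.09 of the whole lower set. In these 11 islands the 9 yr library had 3239 reads, the old libraries 3021 and 3216 and the infant 1663, log2 ratios of -0.35 (interval -0.42 to -0.28) and -0.33 (-0.40 to -0.26). A second group on that chromosome, chr14:12139801-12332400, held 7 called among 21 compared, with 1125, 869 and 939 reads in them (-0.62 and -0.58). On chromosome 1, all 7 compared islands of chr1:46145601-46221200 had both old libraries below 9 yr and 5 were called, with 510, 362 and 429 reads (-0.75 and -0.57). In chr20:892401-951200, 5 of 8 were called, with 719, 600 and 621 reads (-0.51 and -0.53). On the scale of island-free bins 1, 3, 2 and 1 of the called islands of these 4 groups remained called. The largest higher groups held 3 islands each, among them chr20:9097801-9247800 with 273, 469 and 459 reads (0.53 and 0.43).

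Reads outside islands shared part of these differences. Within 20 kb of the lower islands, summed reads outside islands, scaled by island-free bins, had log2 ratios of -0.16 at 22 yr and -0.13 at 26 yr. Around the higher islands the ratios were 0.07 and 0.02, and around all compared islands 0.00 and -0.04. The input had nearly the same flanking density at both, 5.17 and 5.19 reads per kb. The part of the flanking level in the island calls was not tested.

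Over whole stretches of 1 Mb the libraries were closer. Summed island reads of the 2084 windows with at least 500 reads had a standard deviation of the log2 ratio of 0.17 at 22 yr, 0.13 at 26 yr and 0.16 between 22 and 26 yr. By the island rule with a minimum ratio of 5 to 4, 20 windows (0.960%) were higher and 2 (0.096%) lower in both old libraries. On the scale of island-free bins these were 274 (13.1%) and 1 (0.048%). The highest window, 71 to 72 Mb of chromosome 1, held 3 islands with 121, 231 and 220 reads at 9, 22 and 26 yr (0.68 and 0.54), while its island-free bins held 2078, 2111 and 2395. The window of 14 to 15 Mb of chromosome 13 rested on a single island, with 141, 241 and 264 reads (0.52 and 0.59). That of 7 to 8 Mb of chromosome 18 held 7 islands with 217, 363 and 395 reads (0.49 and 0.55). The lower windows were 108 to 109 Mb of chromosome 6, which holds the dense pair of islands above, with 1185, 783 and 949 reads (-0.85 and -0.64), and 228 to 229 Mb of chromosome 1, with 490, 416 and 487 (-0.49 and -0.33). Their own island-free bins were lower too at 22 and 26 yr. The log2 ratios of these bins were -0.16 and -0.12 on chromosome 6, and -0.21 and -0.19 on chromosome 1.

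The shape of the signal showed where within an island the libraries parted. In the 27043 compared islands of 2 to 5 kb, the central 1 kb held 3.01 reads per kb per island and per 1000000 island-free reads at 9 yr. The 22 and 26 yr libraries held 3.57 and 3.50, the infant 2.15 and the input 0.734. At 4 to 5 kb from the centre, a distance that can fall in other islands, the values were 1.28, 1.38 and 1.32. In the 324 higher islands of this width the centre held 3.83 at 9 yr, 7.40 at 22 yr and 6.85 at 26 yr, and the outer stretch 1.00, 1.15 and 1.08. In the 307 lower islands the centre held 3.27, 2.06 and 2.05, and the outer stretch 1.64, 1.56 and 1.59. The centre of these 307 islands still stood above the outer stretch in the old libraries, by 1.31-fold and 1.29-fold against 1.99-fold at 9 yr. The 2 sets were chosen on these counts, so their centres are a description.

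**Figure D5:**
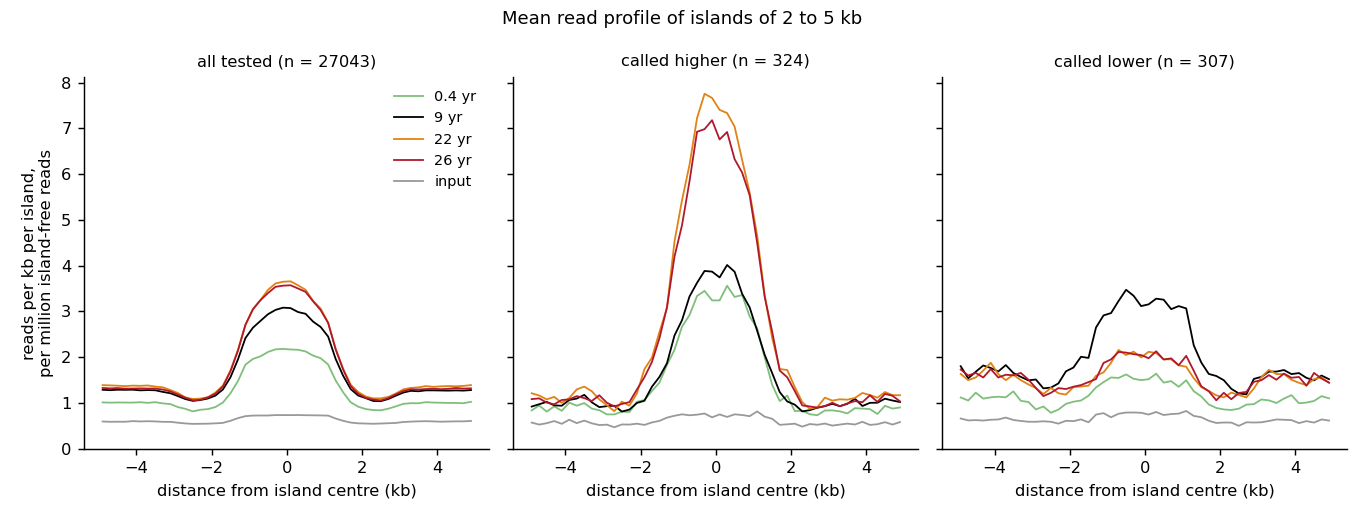
The curves give mean reads per kb per island, per 1000000 island-free reads, in steps of 200 bp from the island centre, for compared islands of 2 to 5 kb and for those called higher and lower, in the 4 H3K4me2 libraries and the input. On this scale the 0.4 yr centre is under that of 9 yr over all compared islands of this width too (2.15 against 3.01). In the called higher islands it (3.36) lies near 9 yr (3.83) and under 22 and 26 yr (7.40 and 6.85). On the scale of island reads, the infant lay on the old side in 372 of all 655 higher islands. In the called lower islands the 0.4 yr centre (1.54) lies near 22 and 26 yr (2.06 and 2.05), and 9 yr (3.27) stands alone.

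The infant library took no part in the rule that called islands and shows how the 9 yr library sits among the other animals. The infant reads, like the 9 yr reads, did enter the authors' joint call that set which islands exist. How far that joint call shaped the infant's position was not tested. In the higher set the 0.4 yr level lay on the 9 yr side of the midpoint between 9 yr and the mean of the old libraries in 283 of 655 islands (43.2%) and on the old side in 372. In the lower set it lay on the 9 yr side in 254 of 677 islands (37.5%). The choice of called islands rests on an outlying 9 yr count, which favours the old side in both sets. In well covered islands the 2 sets lay further apart. With at least 300 reads, the infant was on the 9 yr side in 130 of 227 higher islands (57.3%) and in 25 of 176 lower islands (14.2%). In 104 of these 176 it was beyond the old libraries, that is, lower still. The median log2 ratio of 0.4 over 9 yr in those 176 was -0.55, beside -0.47 at 22 yr and -0.42 at 26 yr. At most of the well covered lower islands the 9 yr animal was therefore above all 3 other animals, on the scale of island reads. This describes islands that were themselves defined in part by 9 yr reads.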

How the data were processed

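Aligned reads of 35 bases and 1 island table were used as deposited. The score field of the deposited read files is 0 throughout, and repeated positions on a strand number 0 in each file. The sources used here give neither aligner nor genome build, and the submitters' processing notes name SICER. In the deposited table the authors give each island's bounds, pooled and input read counts, p-value and adjusted p-value, and fold (a ratio to the input). For 98.5% of islands a count of the pooled reads without repeats came within 2 reads of the deposited one.

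Reads were counted per autosomal island at a point 75 bp downstream of a read's 5′ end. Libraries were scaled by autosomal island reads (2881458 to 3589888) or by reads in 215567 bins of 10 kb free of islands. Log2 ratios carry a pseudocount of 0.5 reads and exact conditional binomial intervals at 95%. A fold against 0 reads uses 3 reads of that library. Reads carry no molecular identifiers. Since each age has 1 library, intervals cover counting error only. Tests used edgeR 4.0.16 (R 4.3.3) with its filter at a minimum count of 10 and Benjamini-Hochberg adjustment at 0.05. Alternatives used DESeq2 1.42.0 and limma 3.58.1. Other steps used Python 3.11.15 with scipy 1.17.1.

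Named per direction were the 8 called islands with the largest smaller difference, the 5 such with at least 300 reads, the 5 with the smallest edgeR p, the 3 nearest to each side of the 2-fold line and the 3 leading windows of 1 Mb, of which some are printed. Groups of neighbouring islands, crowding and stretches without reads were described after the values were seen. The comparison, its rule and these lists were chosen with earlier results of these data known. The code was tested on simulated counts, in which a small part of the islands was given a known difference between ages. The other islands, drawn with spread between libraries but no difference between ages, also gave calls by the island rule, and not fewer. A call therefore describes these 3 libraries and is no evidence of an effect of age. The spread in those counts was a single dispersion of 0.0137 for all islands, taken from the edgeR fit to these same 3 libraries. The X chromosome was left out because the labels give no sex.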

Additional observations from a re-analysis of the deposited data

Results flagged for a closer look

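The X chromosome took no part in the comparison, and its 775 islands held signal well above the input. Of the X reads, 14.1% lay in islands in the 9 yr library, and 16.6% and 16.7% in the 22 and 26 yr libraries. The input had 2.22% (upper limit of the exact Clopper-Pearson 95% interval 2.27%). By the island rule, 8 of the 685 X islands with at least 50 reads were above 9 yr in both old libraries and 3 below, with median log2 ratios of 0.06 and 0.15 on the scale of autosomal island reads.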

How the results depend on the processing

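No paired analysis was possible because each age has 1 library and the labels give no replicate numbers. Islands called above 9 yr numbered 655 and below 677. With island-free bins they were 2624 and 138, with all autosomal reads 1777 and 228, and with 99% intervals 169 and 189. The 2-fold islands (165 and 83) became 378 and 27 with island-free bins, 286 and 33 with all autosomal reads, 334 and 158 with at least 20 reads, 31 and 5 with at least 100, and 1199 and 709 with input reads taken off. Those below 9 yr were 26 with an authors' adjusted p under 1e-10. The 1 Mb windows (20 and 2) became 274 and 1 with island-free bins and 133 and 1 with all autosomal reads. At least 1000 reads left 9 higher windows, and moving reads by 150 bp left 1 lower window. The edgeR calls (4 and 4) became 10 and 2 with island-free bins and 0 and 0 with DESeq2. The summed level of 0.19 (log2) became 0.13 relative to all autosomal reads and 0.25 with input reads taken off.

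Leaving out 1 old library leaves a single ratio, with fewer conditions to meet. Over the 2 choices the called islands above 9 yr then ranged from 2257 to 3077 and below from 2211 to 3314. The 2-fold islands ranged from 440 to 610 and from 525 to 1090, the windows from 84 to 87 and from 2 to 57, and the summed level from 0.17 to 0.21. In 57 lower windows 22 yr alone was compared with 9 yr. The edgeR test without an old library was not run, since no residual degree of freedom remains. TMM scaling, other counting positions, the stricter island set and limma-voom otherwise left these counts within 1.5 times. Of the 41 named islands, none reversed under TMM, island-free bins or a single old library, and 3 lost their call with island-free bins. Depth limits what a narrow island can show: at 50 reads over 3 libraries only differences near 2-fold or more could be called. Above 9 yr a 2-fold difference was often not enough. Of the 2-fold islands, 111 of 165 above 9 yr were called and 82 of 83 below it.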
